A study of Mus musculus with 5 samples.

Results

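The 7 genes described here make, load and break down the inhibitory transmitter GABA (Gad1, Gad2, Slc32a1 and Abat) or encode calcium-binding proteins that mark classes of inhibitory neuron (Pvalb, Calb1 and Calb2). They were taken as a fixed list of symbols, and every array probe whose RefSeq accession maps to a listed symbol was used. All 7 genes were found, with 9 probes in all, among 21149 named genes on the array. Slc32a1 and Pvalb had 2 probes each and the other genes had 1. The samples were 3 mouse brain tumours diagnosed as glioma and 2 samples of normal mouse brain, all taken at postnatal day 150, each measured on 1 single-colour Agilent array. The gliomas come from a mouse model based on MADM, a genetic method in which chromosomes recombine in dividing cells and leave scattered, colour-marked mutant cells. The labels give neither the mutated alleles, the driver of recombination and the strain of either group, nor the part of the brain that was taken. They number the replicates without naming animals, so the p-values measure only the spread between these samples. That spread may be technical in part, though glioma 3 differed in sex from gliomas 1 and 2 and so came from another animal.

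GABA is made from glutamate by 2 glutamate decarboxylases, GAD67 (Gad1) and GAD65 (Gad2). The vesicular transporter VGAT (Slc32a1) loads it into synaptic vesicles, membrane transporters take it back up after release, and GABA transaminase (Abat) starts its breakdown in the mitochondria of neurons and astrocytes. Parvalbumin (Pvalb), calbindin (Calb1) and calretinin (Calb2) are EF-hand proteins that bind calcium in the cytosol. In cortex they mark partly separate sets of interneurons, and they are also found in other neurons, such as the Purkinje cells (Pvalb and Calb1) and granule cells (Calb2) of the cerebellum.

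All 7 genes were lower in every glioma than in either normal brain sample. Each passed the test, limma's moderated test over 16891 genes with Benjamini-Hochberg adjustment and a threshold of 0.05. Across all genes tested, 51.4% were called, 27.8% lower and 23.6% higher in glioma. The groups did not overlap for 74.1% of all genes tested, with glioma lower for 38.8%. The median log2 change of the 7 genes was -3.27, against -0.05 for all genes tested. The size of the fall differed between the genes, from 3.04-fold for Abat to 29.4-fold for Pvalb among the 5 genes measured on all arrays. Whole tissue was measured, so fewer cells of a type and less RNA per cell cannot be told apart. Levels are given below as log2 signal relative to the array's 75th percentile, which is 0 on this scale, and changes as glioma minus normal brain ± the standard error of the fit, with n = 3 and n = 2. Probes differ in brightness, so the level of a gene is not set against that of another gene.

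**Figure D1:**
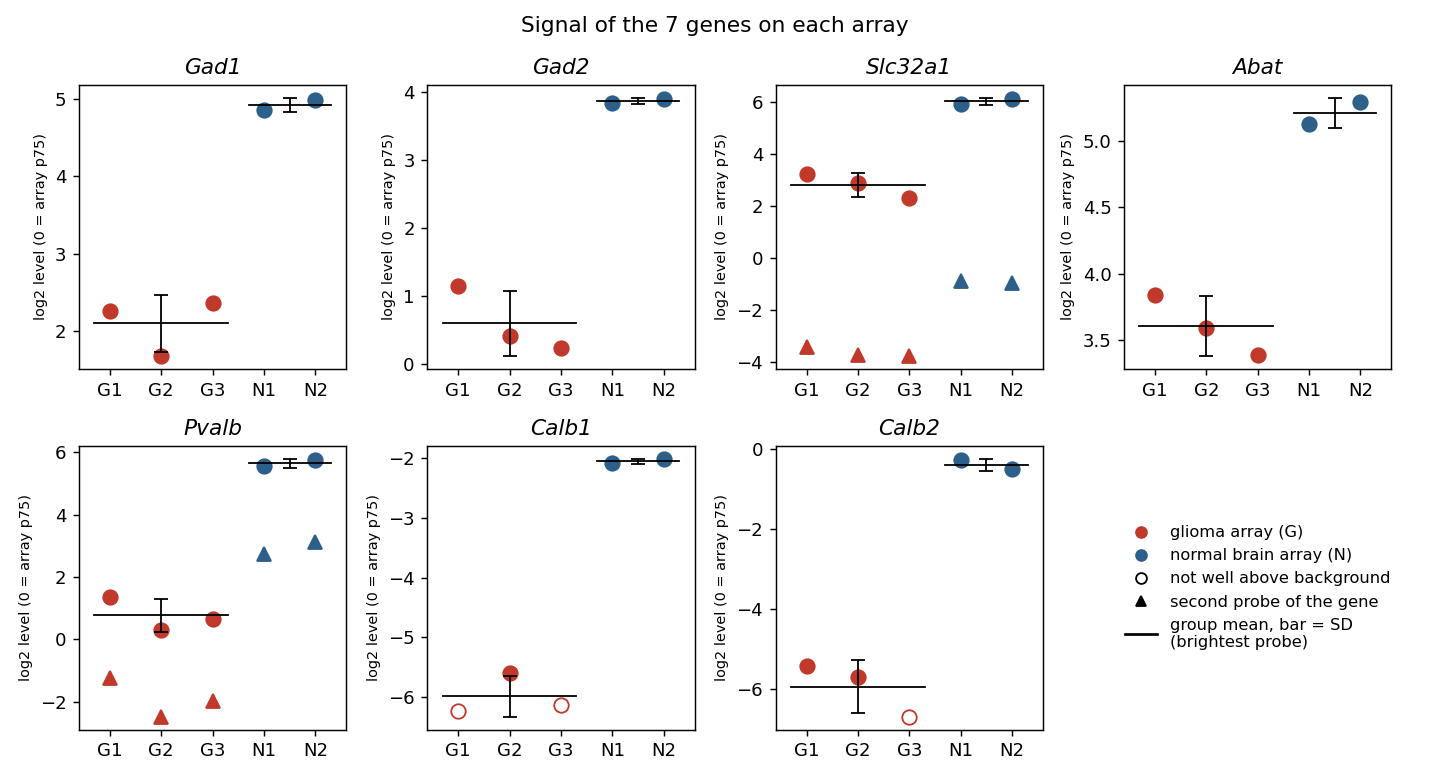
Log2 signal of each of the 7 genes on the 3 glioma arrays (G1 to G3, red) and the 2 normal brain arrays (N1 and N2, blue), relative to the array's 75th percentile, with the mean and SD of each group. Every glioma lies below both normal brain samples for all 9 probes, and open symbols mark the 3 glioma readings of Calb1 and Calb2 that were not well above background.

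Depth and sample checks were as follows. Of 59305 spots other than controls, 65.9% to 70.3% were well above background on the glioma arrays and 61.5% to 64.0% on the normal brain arrays. The arrays shared 1 slide and 1 scan. Gliomas occupied row 1 and normal brain samples row 2 of that slide, so row and group cannot be told apart. The female-specific transcript Xist was detected on glioma array 3 and on no other array, and the Y-linked Ddx3y on the other 4, so glioma 3 differed in sex from the rest. Without glioma 3 all 7 genes were still called lower. Markers that define neurons were present in both groups, with Rbfox3 at 1.48 to 2.21 and Snap25 at 3.26 to 4.43 in the gliomas, against 5.25 to 5.31 and 6.42 to 6.46 in normal brain.

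The synthesis enzymes fell by similar amounts. Gad1 stood at 2.26, 1.68 and 2.36 in gliomas 1 to 3 and at 4.86 and 4.99 in normal brain. The gliomas were all far below both normal samples, with glioma 2 the lowest. Gad1 fell by 2.83 ± 0.25 on the log2 scale, or 7.09-fold (adjusted p = 0.000912). Gad2 stood at 1.14, 0.42 and 0.24 in the gliomas and at 3.84 and 3.90 in normal brain. Here glioma 3 was the lowest and glioma 1 the highest, and the groups did not overlap. Gad2 fell by 3.27 ± 0.30, or 9.65-fold (adjusted p = 0.00104).

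The vesicular transporter followed the decarboxylases. Slc32a1 read 3.22, 2.87 and 2.29 in the gliomas and 5.93 and 6.12 in normal brain on its brighter probe. It fell by 3.23 ± 0.30, or 9.39-fold (adjusted p = 0.00105). Its dimmer probe read -3.44, -3.74 and -3.79 in the gliomas and -0.90 and -0.96 in normal brain. That probe fell by 2.73 ± 0.18 when every detected probe was tested (adjusted p = 0.000852). Both probes placed the gliomas in the same order, with glioma 1 highest and glioma 3 lowest, as Gad2 did.

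The windows upstream of the start sites of these 3 genes are shown because the genes make and load the same transmitter and fell together. Each runs 5′ to 3′ over the 250 bases before the start in RefSeq's GRCm38.p6 annotation. Capitals mark matches on either strand to TAATTA, a core bound by homeodomain factors such as the Dlx proteins, to TATAAA, the TATA box, or to GGGCGG, the GC box.
Gad1, chr2:70561879-70562128, + strand: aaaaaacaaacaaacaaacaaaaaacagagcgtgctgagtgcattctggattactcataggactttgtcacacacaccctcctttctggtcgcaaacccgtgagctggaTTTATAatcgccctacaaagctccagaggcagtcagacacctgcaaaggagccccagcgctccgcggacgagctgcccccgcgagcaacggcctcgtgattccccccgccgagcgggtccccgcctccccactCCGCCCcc
Gad2, chr2:22622077-22622326, + strand: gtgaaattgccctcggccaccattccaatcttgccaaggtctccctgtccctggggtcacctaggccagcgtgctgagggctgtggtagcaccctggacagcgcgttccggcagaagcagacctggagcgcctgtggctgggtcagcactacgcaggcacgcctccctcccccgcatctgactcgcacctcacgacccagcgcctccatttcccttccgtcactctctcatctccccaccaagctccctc
Slc32a1, chr2:158610508-158610757, + strand: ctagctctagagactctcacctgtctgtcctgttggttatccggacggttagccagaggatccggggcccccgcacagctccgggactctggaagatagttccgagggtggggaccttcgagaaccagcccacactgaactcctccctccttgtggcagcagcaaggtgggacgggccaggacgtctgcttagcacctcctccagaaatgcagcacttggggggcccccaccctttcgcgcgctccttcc
The Gad1 window held 1 TATAAA match, starting 141 bases upstream on the reverse strand, and 1 GGGCGG match, starting 8 bases upstream on the reverse strand. The Gad2 and Slc32a1 windows held none of the 3 motifs. Among 32851 windows of the same length in the table, 12.4% held TATAAA, 32.7% GGGCGG and 4.84% TAATTA. A match is a description of the letters, not a site of binding. RefSeq's table gave windows for 4 of the 7 genes, which leaves Abat, Calb1 and Calb2 named only.

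Abat, whose product degrades GABA, showed the smallest fall of the 7. It read 3.84, 3.59 and 3.39 in the gliomas and 5.13 and 5.29 in normal brain. The gliomas lay close together and well apart from normal brain. Abat fell by 1.60 ± 0.19, or 3.04-fold (adjusted p = 0.00201). Of all genes tested, 13.5% fell by at least as much, whereas for Gad1, Gad2 and Slc32a1 the shares were 5.03%, 3.11% and 3.27%.

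Of the 3 calcium-binding proteins, Pvalb was the best measured. Its brighter probe read 1.35, 0.31 and 0.65 in the gliomas and 5.55 and 5.76 in normal brain, and its dimmer probe read -1.25, -2.48 and -1.98 against 2.73 and 3.12. On both probes glioma 1 was the highest glioma and glioma 2 the lowest. The brighter probe fell by 4.88 ± 0.33 or 29.4-fold (adjusted p = 0.000553), and the dimmer one by 4.83 ± 0.39 when every detected probe was tested (adjusted p = 0.00115). Only 0.284% of the genes tested fell by as much. Its window is shown for comparison with those of the GABA genes, again over 250 bases 5′ to 3′ and with the same motifs searched. RefSeq gives Pvalb a further start site, not shown.
Pvalb, chr15:78206401-78206650, - strand: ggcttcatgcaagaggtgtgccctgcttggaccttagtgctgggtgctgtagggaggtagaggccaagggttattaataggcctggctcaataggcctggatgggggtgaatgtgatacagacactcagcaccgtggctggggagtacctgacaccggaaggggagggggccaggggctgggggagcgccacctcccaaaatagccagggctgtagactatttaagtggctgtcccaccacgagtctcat
Neither Pvalb window held any of the 3 motifs.

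Calb1 and Calb2 were dim. Calb2 read -5.42, -5.70 and -6.69 in the gliomas, well above background on 2 of the 3, and -0.27 and -0.49 in normal brain. Its fitted change of -5.56 ± 0.41 was the largest fall of the 7 genes (adjusted p = 0.00063), but it shrank to -3.26 with normexp background correction. Calb1 read -6.24, -5.61 and -6.14 in the gliomas, well above background on glioma array 2 alone, and -2.07 and -2.01 in normal brain. Its fitted change was -3.95 ± 0.23 (adjusted p = 0.000457), or -1.90 with normexp. Both genes were still called lower under normexp, which adds an offset and so compresses dim signals, and the sizes of their falls are therefore uncertain.

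**Figure D2:**
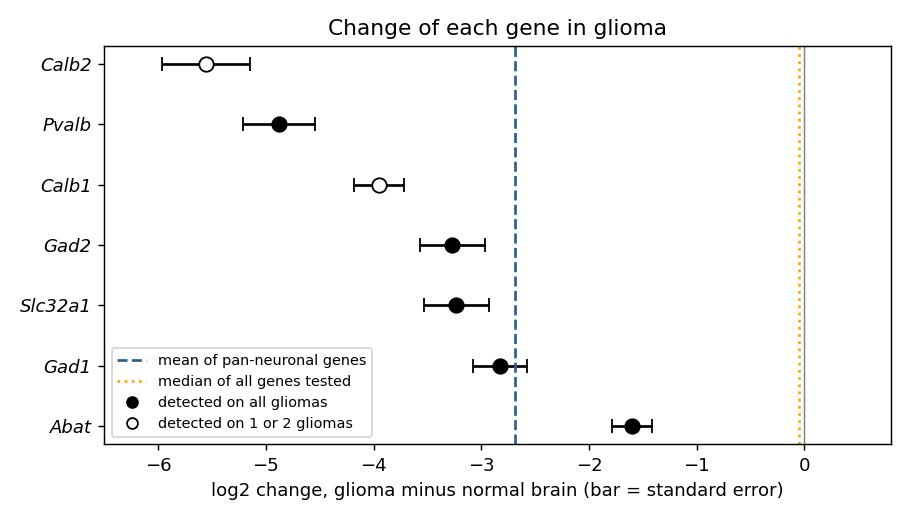
Log2 change of each gene, glioma minus normal brain, with the standard error of the fit as bars, ordered from the largest fall. Changes run from -5.56 for Calb2 to -1.60 for Abat. The dashed line is the mean change of 21 pan-neuronal genes (-2.68) and the dotted line the median of all genes tested (-0.05).

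To see whether the genes fell by different amounts, the log2 ratio of each pair was taken within each array for the 5 genes measured on all arrays, giving 10 pairs. An exact two-sided permutation test over 3 against 2 arrays cannot give a p under 0.1, adjusted or not, so no pair could pass. The smallest adjusted p over these 10 pairs was 0.143. The Gad2 to Slc32a1 ratio differed by -0.04 between the groups, with glioma values (SD 0.22) that overlapped those of normal brain (adjusted p = 1). With the 2 Slc32a1 probes averaged the difference was -0.29. The Gad1 to Slc32a1 ratio also overlapped between groups, with a difference of 0.41 (adjusted p = 0.778) that was 0.02 without glioma 3. Gad1 fell less than Gad2 by 0.45, and the Gad1 to Gad2 ratio was higher in every glioma than in normal brain. Most of that gap came from glioma 3, where the log2 ratio was 2.12, against 1.11 and 1.26 in gliomas 1 and 2 and 1.02 and 1.08 in normal brain (adjusted p = 0.5). Without glioma 3 the difference was 0.13.

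The ratios of the 3 GABA synthesis and loading genes to Abat and to Pvalb differed between the groups without overlap. Of the 10 pairs, 8 did not overlap, and of all single genes tested 74.1% did not. The share among ratios of other genes was not computed, so lack of overlap alone does not set these pairs apart. Relative to Pvalb, Gad1 was 2.05 higher in glioma than in normal brain on the log2 scale, Gad2 1.61 and Slc32a1 1.65 higher, each with groups that did not overlap and an adjusted p = 0.143 by the exact permutation test. Relative to Abat, the ratios of Gad1, Gad2 and Slc32a1 changed by -1.22, -1.67 and -1.63, again without overlap and at adjusted p = 0.143. Abat against Pvalb gave the widest gap of the 10, 3.28. Over the alternatives that gap ran from 3.06 to 3.45. The SD of these ratios among gliomas was 0.25 to 0.47, smaller than each of these gaps.

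The genes were also set against the neuronal signal of the same array, taken as the mean log2 level of 21 pan-neuronal genes. That mean was 2.87, 2.36 and 2.67 in the gliomas and 5.33 and 5.31 in normal brain, a change of -2.68. All 21 of these genes were called lower. Gad1 tracked this mean closely, with a difference of -0.14 between the groups and overlapping values (exact permutation test, two-sided, adjusted p = 0.5). Gad2 and Slc32a1 fell by 0.59 and 0.55 more than the mean, without overlap but with an adjusted p of 0.233, and both gaps were widest in glioma 3 (-0.99 and -1.09 relative to normal brain). Without glioma 3 they were -0.39 and -0.28. Of the 21 single genes behind the mean, 7 fell further than Gad2 and 7 further than Slc32a1.

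Pvalb fell further than the pan-neuronal mean, and Abat less far. The single pan-neuronal genes were themselves spread from -4.73 (the neurofilament gene Nefm) to -0.83 (the growth cone gene Gap43). None of the 21 fell further than Pvalb in the fit, and 4 fell less than Abat. Relative to that mean Pvalb was at -1.86, -2.38 and -2.36 in the gliomas against normal brain, on average -2.20, and over the alternatives tried from -2.37 to -2.08. Abat was at 1.07, 1.34 and 0.82, on average 1.08, and from 0.95 to 1.21 over the alternatives. Both had groups that did not overlap, at the smallest p the test can give (0.1, adjusted p = 0.233 over the 7 genes). How many other genes do not overlap relative to this mean was not computed. Calb2 fell by 2.87 more than the mean and Calb1 by 1.27 more. With normexp background correction the Calb2 gap was -0.64 and the Calb1 gap turned to 0.73, so where Calb1 lies relative to the neuronal mean depends on how dim signals are treated.

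**Figure D3:**
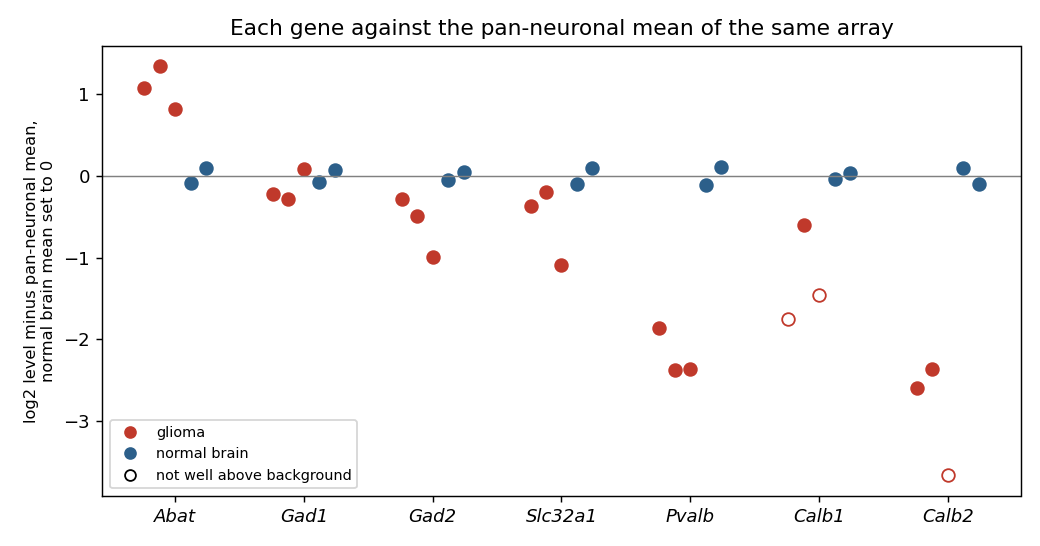
Log2 level of each gene minus the mean of 21 pan-neuronal genes on the same array, with the normal brain mean of each gene set to 0; red points are gliomas 1 to 3 from left to right, blue points normal brain, and open points readings not well above background. Abat lies above 0 in all gliomas (0.82 to 1.34), Gad1 close to it (-0.29 to 0.08) and Pvalb well below (-2.38 to -1.86).

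Glutamatergic genes fell too. Of 16 tested, 14 were called lower and none higher, with a median change of -3.22. The vesicular transporter genes Slc17a6 and Slc17a7, the glutamate counterparts of Slc32a1, the latter chosen after its values were seen, changed by -5.97 ± 0.42 and -3.15 ± 0.54. Neurod6, a transcription factor of cortical excitatory neurons, and the NMDA receptor subunit gene Grin2a fell by 4.05 and 3.92. The Neurod6 call was lost without either normal brain sample (adjusted p = 0.0593 and 0.068). The falls of Gad1, Gad2 and Slc32a1 lay beside these falls in genes of excitatory neurons, and the difference between the lists was not tested.

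The other proteins that handle GABA did not share a direction. Of 14 genes of GABA uptake, breakdown and supply, 6 were called lower, 2 higher and 6 did not pass, with a median change of -0.57. Slc6a11, the astrocyte transporter GAT3, fell by 1.77 ± 0.25. Slc6a13, which encodes GAT2, found mainly in the meninges and vessels, fell by 3.45 ± 0.29. Slc6a12, the betaine and GABA transporter, changed by -3.46 ± 0.43 but was detected on 1 of the 3 gliomas, and by -1.91 with normexp.

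Enzymes and transporters around glutamate and glutamine were split. Maob, an oxidase on the route from putrescine to GABA in astrocytes, fell by 2.65 ± 0.33. Glul, the glutamine synthetase of astrocytes, was called lower at -0.85 ± 0.26 (adjusted p = 0.0419). That call was lost without glioma 1 or 3 (0.0919 and 0.0826), without normal brain 1 or 2 (0.152 and 0.186) in the unscaled values (0.265), with quantile normalization (0.0646) and with the replicate number as a block (0.068). Aldh5a1, which completes the breakdown that Abat begins, changed by -0.03 ± 0.15 and did not pass. Slc38a3, a glutamine transporter, was called higher at 1.34 ± 0.22 (adjusted p = 0.0516 without normal brain 1), and Aldh9a1, which can make GABA from its aldehyde, at 0.52 ± 0.15, a call lost without glioma 1, without either normal brain sample and with the replicate block (adjusted p = 0.0566, 0.185, 0.215 and 0.0804). The glutamine transporters Slc38a1, Slc38a2 and Slc38a5 and the taurine transporter Slc6a6 did not pass, at -0.34, 0.70, 0.76 and 0.43. Without scaling between arrays Slc38a2, Slc38a5 and Slc6a6 passed as higher, and 5 genes of this list were then called higher. The count of 2 higher was 1 without glioma 1 or normal brain 2 and 0 without normal brain 1.

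Peptides and other subtype markers of interneurons were lower. Of 22 tested, 19 were called lower and none higher, with a median change of -2.57. Penk and Tac1, named here for this overlap, are also counted among the striatal genes below. The somatostatin gene Sst, which marks the other large class of cortical interneurons beside Pvalb, read 2.02, 1.14 and 1.06 in the gliomas and 5.07 and 5.15 in normal brain. The groups lay far apart, and Sst fell by 3.71 ± 0.33. Lamp5, a marker of neurogliaform interneurons also found in some excitatory neurons, fell by 4.21 ± 0.18 and the hormone gene Crh by 3.86 ± 0.68. Vip, Cck and Npy, 3 other interneuron peptides chosen after their values were seen, changed by -3.31, -3.52 and -1.96. The Npy call was lost without glioma 3 or without either normal brain sample (adjusted p = 0.0547, 0.0929 and 0.0913). The 3 genes that did not pass, Reln, Erbb4 and Kit, were at -0.08, -0.64 and -0.06. Adarb2 was not well above background on any glioma and, singled out after its values were seen, was at least 4.07-fold lower (adjusted p = 0.00269). Such a bound is taken against each array's lowest signal well above background, or the probe's own signal where higher. It holds only for this treatment of dim signals, since normexp gave Lhx5 and Nkx2-1 (below) changes smaller than their bounds.

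Transcription factors that specify GABAergic neurons went both ways. Of 29 tested, 17 were called lower and 5 higher, with a median change of -1.32. Lhx5 and Nkx2-1, homeobox factors of the forebrain, were not well above background on any glioma. Lhx5 was at least 16.4-fold lower (adjusted p = 0.00334) and Nkx2-1 at least 5.51-fold lower (adjusted p = 0.000648). With normexp their fitted changes were -2.14 and -1.19, smaller than these bounds. Lhx8, detected on 2 of the 3 gliomas, fell by 3.83 ± 1.09 (-2.54 with normexp), a call lost without glioma 2 or without either normal brain sample (adjusted p = 0.0789, 0.0945 and 0.155). The Dlx genes, which drive interneuron fate and were singled out after their values were seen, were all called lower, with changes of -3.60 for Dlx1, -3.23 for Dlx2, -1.71 for Dlx5 and -1.63 for Dlx6. With normexp Dlx6 was at -1.07, and its call was lost without normal brain 2 (adjusted p = 0.0531). The count of lower calls was 9 without normal brain 1 and 8 without normal brain 2.

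Among the 5 factors called higher were Tal1, Sox6, Gsx2 and Etv1, the last 3 named after their values were seen. Tal1, a factor of midbrain GABAergic neurons and of blood cells, rose by 5.03 ± 0.29. Sox6 is also expressed by oligodendrocyte progenitors. Of 12 marker genes of those cells, 11 were called higher and none lower, with a median change of 3.19, and their summed signal was 413 to 474 times the 75th percentile in the gliomas against 48.8 to 49.4 in normal brain. Their part in the rise of Sox6 was not tested. Sox6, Gsx2 and Etv1 changed by 2.81, 2.77 and 0.98. With normexp Gsx2 was at 1.37, and its call was lost without normal brain 1 or 2 (adjusted p = 0.0667 and 0.0653), and so was that of Etv1 (0.168 and 0.159), which was also lost without glioma 1 (0.054) and with probes averaged (0.0766), so that 3 were called higher without either normal brain sample.

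**Figure D4:**
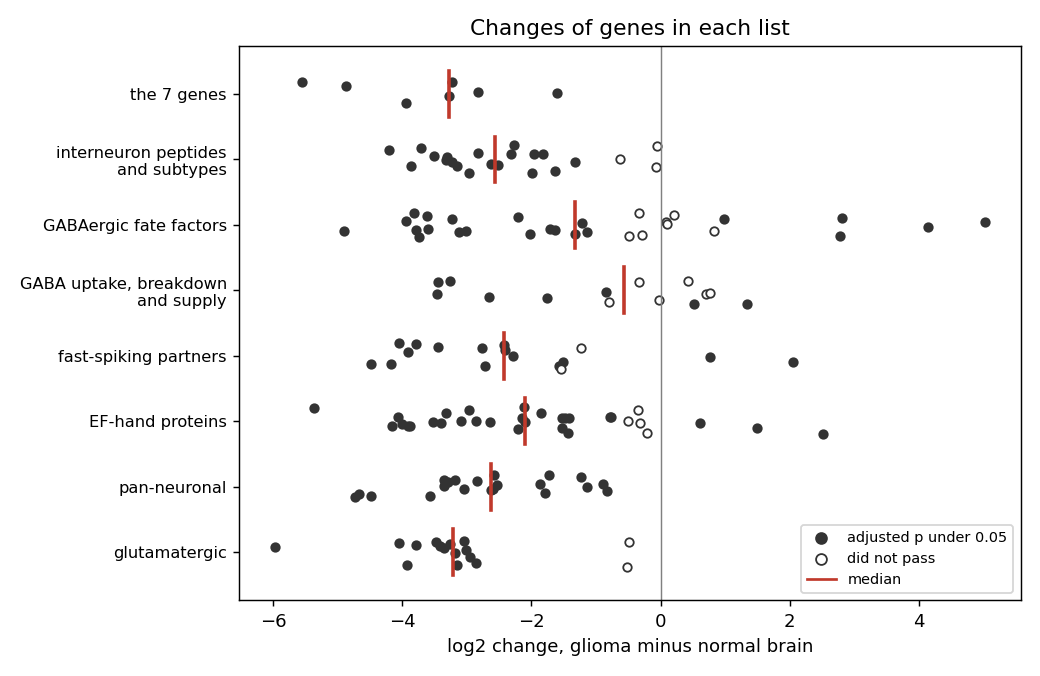
Log2 change, glioma minus normal brain, of each tested gene in 8 lists, with filled points for an adjusted p under 0.05 and a red line at the list's median. The 7 genes have a median of -3.27 beside -2.63 for pan-neuronal and -3.22 for glutamatergic genes; GABA uptake, breakdown and supply (-0.57) and GABAergic fate factors (-1.32) spread to both sides of 0.

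Channels, synaptic and matrix genes of fast-spiking cells, the cells that Pvalb marks in cortex, were mostly lower. Of 17 tested, 13 were called lower and 2 higher, with a median change of -2.43. Nefh, a heavy neurofilament also counted among the pan-neuronal genes, fell by 4.49 ± 0.39, Vamp1, a vesicle fusion protein, by 4.18 ± 0.32 and the potassium channel gene Kcnc2, which allows rapid firing, by 4.05 ± 0.20. The Pvalb fall of 4.88 lay beyond each of these, though the differences were not tested. Syt2, the calcium sensor for release at their synapses, was chosen after its values were seen and was not well above background on any glioma. It was 13.8-fold lower in the fit (adjusted p = 0.000529), and its bound is no different, since its glioma readings lay above the lowest detected signal of each array. Like the other bounds, that of Syt2 depends on how dim signals are treated. Bcan, a matrix proteoglycan that glia and progenitors also make, rose by 2.05 ± 0.15. Gpr176 was at 0.76 (adjusted p = 0.0472), a call lost without each array but glioma 2. The Gpr176 call was also lost with the replicate block (adjusted p = 0.0553) and with no filter on dim probes (0.0548). Each of these 2 settings left 1 gene of this list called higher.

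Most genes on a list of other EF-hand proteins were lower too. Of 32 calcium buffers and sensors tested, 25 were called lower and 3 higher, with a median change of -2.10. Calml4, a calmodulin-like protein, fell by 5.37 ± 0.47, Necab1, a neuronal calcium-binding protein, by 4.16 ± 0.36 and Vsnl1, a visinin-like sensor, by 4.07 ± 0.34. Ocm, oncomodulin, the closest relative of Pvalb, changed by -2.11 ± 0.19. The calmodulin gene Calm2, used by all cells, changed by -1.44, and Calm3 did not pass at -0.51. S100b, which glial cells make, did not pass at -0.22. Rcn1, a calcium-binding protein of the endoplasmic reticulum, rose by 2.51 ± 0.23 and the channel-interacting protein Kcnip3 by 1.5 ± 0.27, the latter 1.09 and not called when its detected probes were averaged (adjusted p = 0.0737). Calu was the third gene called higher, at 0.61, a call lost without glioma 1 or 2 (adjusted p = 0.0557 and 0.0855), without normal brain 1 or 2 (0.18 and 0.231) and with no filter on dim probes (0.0574). The Kcnip3 call was lost without normal brain 2 as well (0.0638), which left 1. Calm2, Calm3, S100b, Ocm and Calu were chosen after their values were seen. Scgn, a relative of Calb1 and Calb2, and S100g, of the S100 family, were not well above background on any array.

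Markers of brain regions bear on the calcium-binding proteins, which differ between regions. All 12 striatal genes were called lower, with a median change of -2.57, among them Drd1, a dopamine receptor, and Pde1b, a phosphodiesterase, at -2.95 and -2.82. Cerebellar genes went both ways, with 6 of 12 called lower and 3 higher. Gabra6 and Cbln3, which mark cerebellar granule cells, were not well above background on any array. Pcp2, a Purkinje cell marker, was detected on all arrays and did not pass, at -0.29 ± 0.17. Of the cerebellar list, Neurod1 was at least 16.0-fold lower (adjusted p = 0.000439; -1.98 on the log2 scale with normexp), Pcp4 fell by 3.53 and Calb1, itself a member, is described above, whereas the homeobox gene En2 rose by 2.92. The part that region plays in the falls of Pvalb, Calb1 and Calb2 was not tested.

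Other cell types changed alongside. Of 14 astrocyte genes, which bear on Abat, 6 were called lower and 1 higher, with a median change of -0.67. Their summed signal was 206 to 355 in the gliomas against 375 to 394 in normal brain. Most of that sum came from Aldoc, named after its values were seen, which did not pass at -0.54 ± 0.30. The count of 1 higher was 0 without glioma 1, normal brain 1 or normal brain 2. The defining markers Gfap and Aqp4 were detected on all arrays and did not pass, at 0.34 and -0.33. Of 12 mature oligodendrocyte genes 8 were called lower, of 10 endothelial genes 7 lower, and of 12 microglia and macrophage genes 7 higher and 1 lower. Without normal brain 1 and 2 in turn, the count of lower oligodendrocyte genes was 4 and 3, that of lower endothelial genes 4 and 4, and that of higher microglia genes 1 and 0. Without glioma 1 the last was 4. The 1 microglia gene called lower was not called in the unscaled or quantile values, with probes averaged, or without glioma 2 or either normal brain sample. Their part in the falls of the 7 genes was not tested.

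The genes whose pattern over the 5 arrays was most like that of Gad1, Gad2 and Slc32a1 were found among 14859 genes detected on all arrays. Likeness was the root mean square difference, on the log2 scale and after centring each gene on its own mean, from the mean profile of those 3 genes. Genes with clone or provisional names were passed over. Among the nearest 5 of the rest were Scg2 (0.04), a secretogranin of dense-core vesicles, Epha7 (0.05), an ephrin receptor, Prrt2 (0.06), a presynaptic protein, and Asphd1 (0.06). Scg2 read 2.71, 2.12 and 2.17 in the gliomas and 5.32 and 5.45 in normal brain. Gad2, Slc32a1 and Gad1 were themselves 0.13, 0.19 and 0.29 from their mean profile.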

How the data were processed

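Total RNA was measured on Agilent single-colour 60K mouse arrays. The authors' scanner files hold spot intensity values that come from Feature Extraction (version 10.7.3.1, per the submitters' processing notes), background-subtracted within each array, with no scaling between arrays recorded. The authors' deposited table holds log2 values equal to the log2 of the processed signal (median difference 0, correlation 1 on every array), and its column medians are 5.83 to 6.36. Gene lists and members were chosen with earlier results of these data known.

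Control spots and flagged outlier spots were left out (23 of 55681 probes had none left on some array) and repeated spots averaged. Levels were the log2 of the processed signal, less its 75th percentile on that array. Of 29787 probes with a RefSeq accession, 28019 were named through RefSeq's GRCm38.p6 table. Each gene was represented by its brightest probe, and the 16891 genes detected above background on 2 or more arrays entered limma 3.58.1 in R 4.3.3 (lmFit, eBayes, Benjamini-Hochberg). Within-array differences were tested by exact permutation. The number of arrays limits precision. The fit was checked on simulated data of 16891 genes in this comparison. There it recovered 19.0%, 64.2%, 77.8% and 88.0% of log2 changes of 1, 2, 3 and 4. Those shares describe the simulated data only, where far fewer genes changed than were called in the measured data. The share recovered in the measured data was not tested.

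Named genes were all 7 members, up to 3 called genes per list in the direction most took and up to 2 in the opposite one, all genes of the GABA uptake list and the 5 nearest profiles. Some genes under this rule are not reported here, and genes chosen otherwise are said to be. Alternatives were 3 other treatments of the signal (no scaling, quantile, normexp with an offset of 50), 2 other filters, averaged probes, each array left out, a replicate block, an intensity trend and a fit over every detected probe. Normexp used spot median signals and was added after the data were seen, as was the fit over probes. Figures used Python 3.11.15 and matplotlib 3.10.9.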

Additional observations from a re-analysis of the deposited data

How the results depend on the processing

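All 7 genes were called lower under every alternative that tested them. The filter asking for detection on all arrays did not test Calb1 and Calb2. Their log2 changes ranged from -2.96 to -2.47 for Gad1, -3.54 to -2.91 for Gad2, -3.44 to -2.87 for Slc32a1, -1.72 to -1.25 for Abat, -5.17 to -4.52 for Pvalb, -4.15 to -1.90 for Calb1 and -5.82 to -3.26 for Calb2, the smallest falls of the last 2 under normexp. Without scaling, the median change of all genes was 0.31 in place of -0.05, and 63.7% of calls were higher against 46.0%. Over all genes, 8687 were called, 4693 lower and 3994 higher. With 1 array left out the count ran from 4422 to 9434, with 2434 to 5049 lower and 1958 to 4385 higher, and was lowest without a normal brain sample, where the lone sample was assumed to vary like the gliomas. Detection on all arrays left 10 GABAergic fate factors lower in place of 17, fewer genes being tested. Replicate numbers did not pair the samples: deviations of equally numbered arrays correlated at 0.01 and 0.05. With the replicate number as a block 8263 genes and all 7 members were called. Single genes outside the 7 were followed as well, both those of the naming rule and others picked after the values were seen. Some of them are not reported here. Among them a setting removed a call in 70 cases, added one in 7 and left it in 1042, and no direction reversed. Dim signal limits the sizes given for Calb1 and Calb2.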
